A study of Homo sapiens with 9 samples.

Results

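Transcript levels of 10 genes that act as feedback regulators or early outputs of the MAPK pathway were followed in H1299 cells after depletion of FIBP, the intracellular binding protein of the growth factor FGF1. The 10 genes were DUSP4, DUSP5 and DUSP6, SPRY1, SPRY2 and SPRY4, SPRED1, ETV4, ETV5 and EGR1. They were chosen by their known role, with earlier results of these data known, were found by symbol in the deposited tables, and stand among 60966 genes in all. Of the 10 members, 9 reached the level needed for testing, and DUSP4 did not.

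H1299 is a long-established cell line from a human lung cancer of the non-small cell kind. The cells were transfected with a scrambled control siRNA (Scramble) or with 1 of 2 siRNAs against FIBP (Si-FIBP#1 and Si-FIBP#2), at 100 nM for 48 h, and grown with serum. Each group had 3 samples, and poly(A) RNA was sequenced from both ends with reads of 150 bases. The labels describe the samples as replicates without saying which step was repeated, so the p-values measure the spread between these samples. The labels name no growth factor that was added or withdrawn, and both comparisons with Scramble share the same 3 control samples. All groups were transfected, and the cells are 1 line.

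Growth factors such as FGF and EGF bind receptor tyrosine kinases and switch on RAS, which passes the signal through RAF and MEK to the kinase ERK. Active ERK induces its own brakes. DUSP phosphatases remove the activating phosphates from ERK, while Sprouty and SPRED proteins act further up, at the receptor, RAS or RAF. The ETS factors ETV4 and ETV5 and the zinc finger factor EGR1 are transcription factors whose genes are switched on downstream of ERK, and the levels of all these transcripts are widely used as a readout of the pathway. RNA levels do not measure ERK phosphorylation, which these tables do not hold.

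FIBP itself, the target of both siRNAs, was measured first as a check of the labels. Its level in Scramble replicates 1 to 3 was 88.4, 79.5 and 77.7 FPKM (fragments scaled to transcript length and library depth, which puts genes of different length on 1 scale). It was 7.49, 7.77 and 4.30 FPKM with Si-FIBP#1 and 7.13, 5.92 and 8.21 FPKM with Si-FIBP#2. The groups did not overlap, and the means were 7.96% and 8.66% of Scramble. The remaining FIBP level did not differ between the siRNAs by a detectable amount, with a log2 difference of 0.13 (95% interval -0.28 to 0.54, adjusted p = 0.686, limma).

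Genes were tested with limma on log2(FPKM + 1), and a gene passed the test where its Benjamini-Hochberg adjusted p over 14985 tested genes was below 0.05. A fold change over 2 on this scale was noted as well, since the study set that threshold. Fold changes on this scale are smaller than those of the FPKM means where a gene is low. The libraries held an estimated 20150000 to 24100000 fragments. Si-FIBP#2 replicate 2 stood apart: it was the sample farthest from its group mean in 48.5% of the tested genes, against 24.0% to 40.5% for the other samples, so results that rest on Si-FIBP#2 are given with and without it where it matters. The share of FPKM from mitochondrial transcripts was 10.1% to 10.4% in Scramble samples, 14.2% to 14.6% after Si-FIBP#1 and 12.2% to 13.2% after Si-FIBP#2. Of 12 markers of a lung cancer line, VIM, KRT8, KRT18 and CDH2 were expressed, while CDH1, EPCAM, KRT19 and the lung markers NKX2-1, NAPSA, SFTPB and SFTPC stayed below 1 FPKM in all samples. The summed level of the 12 markers was 3758.5 to 3989.3 FPKM in Scramble samples, 2471.7 to 2797.7 after Si-FIBP#1 and 1839.0 to 2541.6 after Si-FIBP#2. Most of each sum was VIM, at 3150.9 to 3368.8, 2167.8 to 2454.8 and 1592.5 to 2220.4 FPKM in the 3 groups. The means of KRT8 and KRT18 were also lower in both depleted groups, while that of CDH2 was higher (13.29, 17.26 and 18.25 FPKM). The summed level of 7 markers of blood, vessel, liver and muscle cells was 35.8 to 37.6, 43.0 to 46.3 and 58.0 to 71.7 FPKM, of which CD68, a lysosomal protein also made outside macrophages, gave 31.0 to 67.0. The muscle marker ACTA2 was at 3.70 to 6.64 FPKM over all samples. PTPRC, PECAM1, CDH5, ALB and DES reached at most 1.0 FPKM. Whether the mitochondrial share or these markers have a part in the members' values was not tested. In bulk RNA, fewer cells with a transcript and less of it per cell cannot be told apart.

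In control cells the members covered a wide range. In the Scramble samples SPRY2 was highest with 72.7 ± 2.62 FPKM (mean ± SD, n = 3, here and for all means that follow), followed by ETV5 and SPRY4, whose ranges overlapped at 38.6 to 39.8 and 37.4 to 42.0 FPKM. DUSP5, DUSP6 and ETV4 came next, at 28.4 ± 2.38, 23.9 ± 1.36 and 19.7 ± 0.177 FPKM, and their ranges did not overlap. SPRED1, SPRY1 and EGR1 lay near each other, at 9.71 ± 0.789, 9.43 ± 0.729 and 8.96 ± 0.462 FPKM, with overlapping ranges. DUSP4 was close to 0.

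The phosphatases went different ways. DUSP5 (ENSG00000138166, chr10:110497838-110511544, plus strand, GRCh38), which acts on ERK in the nucleus, was at 26.7, 27.3 and 31.1 FPKM in Scramble, 38.7, 41.5 and 40.0 FPKM with Si-FIBP#1, and 70.3, 63.7 and 75.9 FPKM with Si-FIBP#2. The 3 groups did not overlap, with every depleted sample above every Scramble sample and every Si-FIBP#2 sample above every Si-FIBP#1 sample. The means were 1.41 times and 2.47 times that of Scramble. DUSP5 rose by 0.49 on the log2 scale (SE 0.079, adjusted p = 0.000771, limma) with Si-FIBP#1 and by 1.27 (SE 0.079, adjusted p = 2.73e-06) with Si-FIBP#2. It was the single tested member that passed as higher with both siRNAs. The rise was 0.79 larger with Si-FIBP#2 (95% interval 0.61 to 0.96, adjusted p = 0.000424). Nearly all of it came from 1 transcript, ENST00000369583, at 26.9, 39.3 and 68.6 FPKM on average in the 3 groups.

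DUSP6 (ENSG00000139318, chr12:89347232-89353271, minus strand), the cytoplasmic ERK phosphatase and the classical feedback gene of FGF signalling, was at 22.6, 23.8 and 25.3 FPKM in Scramble and at 16.6, 16.1 and 17.6 FPKM with Si-FIBP#1. With Si-FIBP#2 it was at 35.5, 19.6 and 31.3 FPKM. All Si-FIBP#1 samples lay below all Scramble samples, whereas replicates 1 and 3 of Si-FIBP#2 lay above and replicate 2 lay below them. DUSP6 fell by 0.49 on the log2 scale with Si-FIBP#1 (SE 0.173, adjusted p = 0.0414, limma). This call was lost when any 1 of the 6 samples compared was left out: the adjusted p was 0.0627, 0.0847 and 0.108 without Scramble replicates 1, 2 and 3, and 0.0893, 0.103 and 0.0691 without Si-FIBP#1 replicates 1, 2 and 3. It was also lost with no filter on low values (adjusted p = 0.115) and with annotated transcripts only (adjusted p = 0.0753). The log2 change itself stayed at -0.53 to -0.45 on leaving out 1 sample. It passed with an adjusted p of 0.000519 without Si-FIBP#2 replicate 2, and of 0.000717 with only the compared groups in the fit. With Si-FIBP#2 the difference was 0.22 (95% interval -0.17 to 0.61, adjusted p = 0.324), and without Si-FIBP#2 replicate 2 it was 0.46 with an adjusted p of 0.00158. Without Si-FIBP#2 replicates 1 and 3 it was 0.05 and 0.14 (adjusted p = 0.817 and 0.592). The siRNAs differed by 0.71 (95% interval 0.32 to 1.10, adjusted p = 0.0238) and by 0.95 (adjusted p = 0.000175) without that sample. The adjusted p for this difference was 0.0692, 0.0748 and 0.0503 without Si-FIBP#1 replicates 1, 2 and 3, and 0.0674 and 0.0854 without Si-FIBP#2 replicates 1 and 3. It was 0.0790 with no filter on low values and 0.0508 with only the compared groups in the fit.

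DUSP4 (ENSG00000120875), a nuclear phosphatase, was at 0.07, 0.08 and 0.11 FPKM in Scramble, 0.20, 0.12 and 0.17 FPKM with Si-FIBP#1, and 0.19, 0.24 and 0.22 FPKM with Si-FIBP#2. These levels stand for about 8 to 27 fragments per sample. All depleted samples were above all Scramble samples, but the gene was below the level for testing and no change was called.

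The Sprouty genes, whose products dampen signalling from receptors to RAS and RAF, responded differently to each siRNA. SPRY2 (ENSG00000136158, chr13:80335976-80340951, minus strand) was at 75.6, 72.1 and 70.5 FPKM in Scramble and at 94.9, 104.0 and 102.8 FPKM with Si-FIBP#1. With Si-FIBP#2 it was at 70.1, 74.5 and 65.6 FPKM, within or below the Scramble range. SPRY2 rose by 0.46 on the log2 scale with Si-FIBP#1 (SE 0.061, adjusted p = 0.000223, limma), in all 3 samples. With Si-FIBP#2 the difference from Scramble was -0.05 (95% interval -0.19 to 0.08, adjusted p = 0.496), and with median ratio scaling it was -0.15 and passed (adjusted p = 0.0490). The difference between the siRNAs was -0.52 (95% interval -0.65 to -0.38, adjusted p = 0.000931).

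SPRY1 (ENSG00000164056, chr4:123396795-123403760, plus strand) showed the opposite dependence. It was at 8.60, 9.75 and 9.95 FPKM in Scramble, 8.32, 7.86 and 7.46 FPKM with Si-FIBP#1, and 5.24, 2.33 and 3.52 FPKM with Si-FIBP#2. The Si-FIBP#2 samples were below all others, at 39.2% of the Scramble mean. All Si-FIBP#1 samples were also below all Scramble samples, at 83.5% of the Scramble mean. SPRY1 fell by 1.20 on the log2 scale with Si-FIBP#2 (SE 0.187, adjusted p = 0.000632, limma). Without Si-FIBP#2 replicate 2, where SPRY1 was lowest, it fell by 0.97 (adjusted p = 0.000627). That fall no longer exceeds 2-fold on the log2(FPKM + 1) scale. With Si-FIBP#1 the difference was -0.23 (95% interval -0.65 to 0.19, adjusted p = 0.338), and it passed with only the compared groups in the fit (adjusted p = 0.0499). The siRNAs differed by -0.97 (95% interval -1.39 to -0.55, adjusted p = 0.00909). SPRY1 rests on an estimated 100 to 360 fragments per sample and has the lowest such number of the tested members.

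SPRY4 (ENSG00000187678, chr5:142310427-142326455, minus strand) moved little. It was at 42.0, 37.4 and 37.8 FPKM in Scramble, 35.2, 34.1 and 34.4 FPKM with Si-FIBP#1, and 43.7, 42.0 and 40.9 FPKM with Si-FIBP#2. It fell by 0.17 with Si-FIBP#1 (SE 0.059, adjusted p = 0.0354, limma), a call lost without Scramble replicate 1 (adjusted p = 0.122) and without Si-FIBP#1 replicates 1, 2 or 3 (0.0562, 0.0971 and 0.0798). With Si-FIBP#2 the difference was 0.11 (95% interval -0.02 to 0.24, adjusted p = 0.150), and 0.16 (adjusted p = 0.0470) without Scramble replicate 1. The difference between the siRNAs was 0.28 (95% interval 0.15 to 0.41, adjusted p = 0.0122).

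SPRED1 (ENSG00000166068, chr15:38252326-38357249, plus strand), which brings the RAS inhibitor neurofibromin to the membrane, did not pass the test in any comparison. It was at 9.36, 10.6 and 9.15 FPKM in Scramble, 8.10, 7.67 and 9.23 FPKM with Si-FIBP#1, and 10.1, 9.83 and 9.34 FPKM with Si-FIBP#2. Each siRNA group overlapped with Scramble, and all Si-FIBP#2 samples were just above all Si-FIBP#1 samples. The differences from Scramble were -0.20 (95% interval -0.39 to -0.004, adjusted p = 0.0864, limma) and 0.01 (95% interval -0.19 to 0.20, adjusted p = 0.943). Without Si-FIBP#1 replicate 3 the first was -0.27, with an adjusted p of 0.0390.

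The 3 transcription factors were lower with both siRNAs. ETV5 (ENSG00000244405, chr3:186046308-186110318, minus strand) was at 39.2, 39.8 and 38.6 FPKM in Scramble, 28.5, 29.8 and 30.2 FPKM with Si-FIBP#1, and 28.2, 28.3 and 28.3 FPKM with Si-FIBP#2. All 6 depleted samples were below all Scramble samples, at 75.3% and 72.1% of the Scramble mean. ETV5 fell by 0.40 with Si-FIBP#1 (SE 0.048, adjusted p = 0.000137, limma) and by 0.46 with Si-FIBP#2 (SE 0.048, adjusted p = 5.96e-05). Between the siRNAs the difference was -0.06 (95% interval -0.17 to 0.05, adjusted p = 0.455).

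ETV4 (ENSG00000175832, chr17:43527844-43579620, minus strand), a close relative of ETV5, was at 19.9, 19.7 and 19.6 FPKM in Scramble, 13.6, 11.96 and 10.8 FPKM with Si-FIBP#1, and 15.0, 13.3 and 16.0 FPKM with Si-FIBP#2. Again every depleted sample was below every Scramble sample, while the siRNA groups overlapped. ETV4 fell by 0.67 with Si-FIBP#1 (SE 0.090, adjusted p = 0.000265, limma) and by 0.40 with Si-FIBP#2 (SE 0.090, adjusted p = 0.00510). The difference between the siRNAs was 0.27 (95% interval 0.07 to 0.47, adjusted p = 0.0741), and it passed the test without Si-FIBP#1 replicate 1 (0.35, adjusted p = 0.0444), without Si-FIBP#2 replicate 2 (0.34, adjusted p = 0.0327) and with TPM scaling (0.32, adjusted p = 0.0396). Exons of ETV4 overlap those of DHX8 on the opposite strand, which was at 11.8 to 17.5 FPKM with means of 13.3, 16.2 and 15.8 FPKM in the 3 groups. Whether reads were counted by strand is not given in the sources used here, so reads from the shared stretch cannot be told apart.

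EGR1 (ENSG00000120738, chr5:138465490-138469315, plus strand) had the largest change with Si-FIBP#1 among the tested members. It was at 9.35, 9.08 and 8.45 FPKM in Scramble, 1.63, 2.29 and 2.35 FPKM with Si-FIBP#1, and 3.22, 7.55 and 3.89 FPKM with Si-FIBP#2. No depleted sample reached the Scramble range, although Si-FIBP#2 replicate 2 came close to it. The means were 23.3% and 54.5% of Scramble. EGR1 fell by 1.70 with Si-FIBP#1 (SE 0.227, adjusted p = 0.000251, limma) and by 0.83 with Si-FIBP#2 (SE 0.227, adjusted p = 0.0133), with falls of 0.62, 1.13 and 0.73 (adjusted p = 0.0440, 0.000233 and 0.0473) without Si-FIBP#2 replicates 1, 2 and 3. The difference between the siRNAs was 0.87 (95% interval 0.36 to 1.38, adjusted p = 0.0312) and 0.56 (adjusted p = 0.0201) without Si-FIBP#2 replicate 2. It did not pass without Si-FIBP#1 replicates 1, 2 or 3 (adjusted p = 0.102, 0.0675 and 0.0561) or without Si-FIBP#2 replicate 3 (0.0528), nor with no filter on low values (0.0996) or only the compared groups in the fit (0.0659). The levels stand for an estimated 112 to 584 fragments per sample.

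EGR1 is a textbook target of the serum response factor SRF, which binds CArG boxes together with ETS factors that ERK phosphorylates. Its promoter is shown beside the level of SRF, which was itself lower in FIBP-depleted cells. SRF was at 22.5 ± 1.67 FPKM in the controls, 12.9 ± 1.53 after Si-FIBP#1 and 9.89 ± 0.373 after Si-FIBP#2. Compared directly, SRF was lower after Si-FIBP#2 than after Si-FIBP#1 (log2 difference -0.35, adjusted p = 0.0278, limma). EGR1 was higher (0.87, adjusted p = 0.0312), a call lost under some alternatives, as given above. In Si-FIBP#2 replicate 2, SRF was at 9.7 FPKM and EGR1 at 7.55 FPKM. Whether the SRF level has a part in the EGR1 change was not tested. The 250 bases before the EGR1 start in RefSeq (GRCh38.p14, chr5:138465229-138465478, plus strand) are printed 5′ to 3′, with CArG boxes in capitals.
EGR1 promoter: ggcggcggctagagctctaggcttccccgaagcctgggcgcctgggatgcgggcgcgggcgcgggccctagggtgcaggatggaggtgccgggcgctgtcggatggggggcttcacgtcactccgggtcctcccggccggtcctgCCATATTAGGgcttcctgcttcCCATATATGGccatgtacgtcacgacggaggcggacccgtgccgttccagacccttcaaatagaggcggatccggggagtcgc
The capitals mark CCATATTAGG, from 105 to 96 bases before the start, and CCATATATGG, from 83 to 74 bases before it. Windows from 250 bases before to 50 after the start were at hand for 6 of the 10 members, and SPRY1, SPRY2, SPRY4, DUSP6 and SPRED1 had no CArG box in theirs. The search covered both strands. Of 27305 genes with a window, 438 (1.6%) had at least 1 box and 11 (0.0403%) had 2 or more. SRF also had 2 boxes. A match is a description of the letters and says nothing about binding in these cells.

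Read over the members, Si-FIBP#1 gave 2 higher and 5 lower among the 9 tested, with 2 that did not pass. Across all tested genes 27.8% passed as higher and 19.9% as lower in that comparison, and the median log2 change was -0.23 for the members and 0.07 for all genes. With a fold change over 2, EGR1 was the member that passed, where 5.66% of all genes did. With Si-FIBP#2, 1 member was higher (DUSP5) and 4 were lower (SPRY1, ETV4, ETV5 and EGR1), and 4 did not pass, where 31.1% of all genes passed as higher and 17.7% as lower. The median was -0.05 for the members and 0.11 for all genes. DUSP5 and SPRY1 also exceeded a fold change of 2, which 5.05% of all genes did.

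Between the siRNAs 4 members were higher with Si-FIBP#2 (DUSP5, DUSP6, SPRY4 and EGR1), 2 were lower (SPRY1 and SPRY2) and 3 did not pass. In that comparison 9.58% of all tested genes passed as higher and 5.80% as lower. On the log2(FPKM + 1) scale none of the 9 differed by more than 2-fold, as 0.561% of all genes did. SPRY1 and EGR1 were past it without Si-FIBP#2 replicate 1 (-1.19 and 1.07) and with a pseudocount of 0.1 (-1.14 and 1.11). Their FPKM means over all 3 samples of each group also differed by more than 2-fold. Those means include Si-FIBP#2 replicate 2, which had its group's lowest SPRY1 and highest EGR1 value (2.33 and 7.55 FPKM). Leaving out that sample gave smaller log2 differences of -0.74 for SPRY1 and 0.56 for EGR1, both inside 2-fold. Without Si-FIBP#1 replicate 2 or 3 or Si-FIBP#2 replicate 3, with no filter on low values, or with only the compared groups in the fit, 4 of the members passed.

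With both siRNAs together against Scramble, DUSP5 rose by 0.88 on the log2 scale (adjusted p = 6.43e-06, limma) and SPRY2 rose by 0.20 (adjusted p = 0.00887). The SPRY2 value averages 0.46 with Si-FIBP#1 and -0.05 with Si-FIBP#2. SPRY1 fell by 0.71, ETV4 by 0.53, ETV5 by 0.43 and EGR1 by 1.26, with adjusted p-values of 0.00463, 0.000349, 2.76e-05 and 0.000506. The SPRY1 value averages -0.23 with Si-FIBP#1 and -1.20 with Si-FIBP#2. EGR1 was the member past a fold change of 2. Over all tested genes 32.6% passed as higher, 20.3% as lower and 4.81% with a fold change over 2. DUSP6 (-0.14, adjusted p = 0.477, and -0.01 without Si-FIBP#2 replicate 2), SPRED1 (-0.10, adjusted p = 0.316) and SPRY4 (-0.03, adjusted p = 0.633) did not pass. DUSP5 rose, and ETV4, ETV5 and EGR1 fell, with each siRNA taken alone, as 21.8% of all tested genes rose and 13.7% fell. These comparisons share the Scramble samples.

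**Figure D1:**
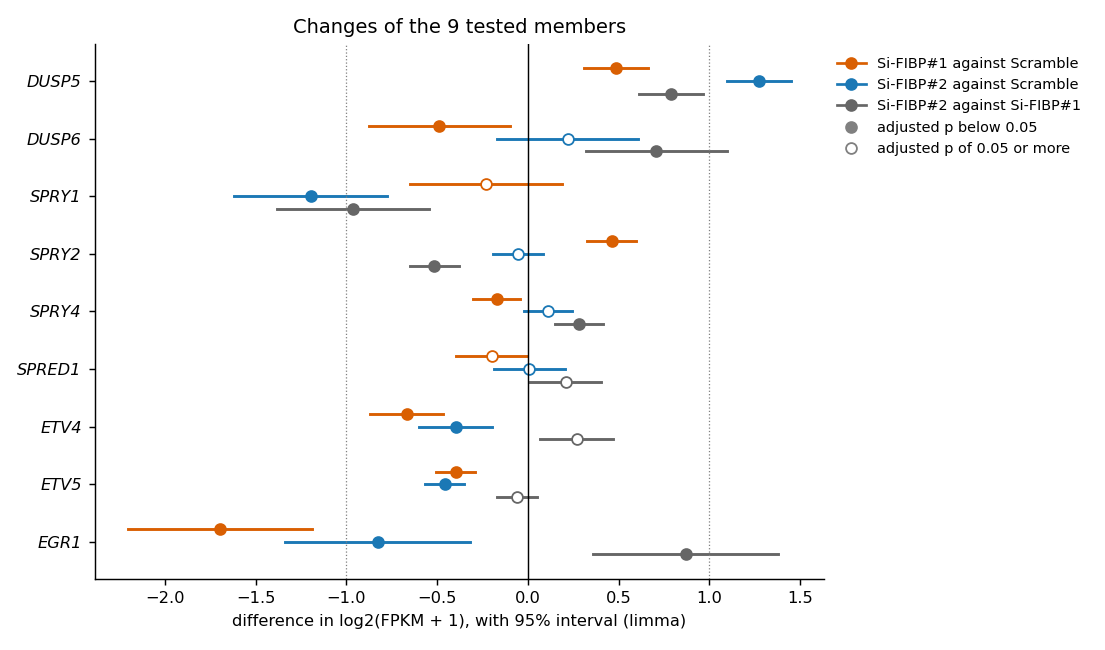
Differences in log2(FPKM + 1) of the 9 tested members with their 95% intervals from limma, for each siRNA against Scramble and for Si-FIBP#2 against Si-FIBP#1. Filled points have an adjusted p below 0.05, and the dotted lines mark a fold change of 2. Both siRNA points lie right of 0 for DUSP5 and left of 0 for SPRY1, ETV4, ETV5 and EGR1. DUSP6, SPRY1, SPRY2 and SPRY4 are each filled against Scramble for 1 siRNA.

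The gene values are sums over 66 transcripts in the tables, and their make-up differed between members. EGR1 had a single transcript. In SPRY2 and DUSP5 the main transcript held at least 90.9% of the gene value in each sample, and in SPRY2 it was at 67.7, 93.0 and 64.4 FPKM on average in Scramble, Si-FIBP#1 and Si-FIBP#2. ENST00000279488 of DUSP6 held 78.3%, 76.4% and 77.5% of the gene on average, so the gene value followed that transcript. ENST00000434127 of SPRY4 was at 30.02 ± 1.55 FPKM in Scramble, 24.2 ± 1.19 after Si-FIBP#1 and 30.5 ± 0.588 after Si-FIBP#2.

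In ETV5 the main transcript ENST00000306376 was at 28.1 ± 0.771, 23.3 ± 1.30 and 21.99 ± 0.881 FPKM. A short ETV5 transcript of 642 nt, ENST00000476890, was at 7.54 ± 0.982, 3.97 ± 0.827 and 3.97 ± 0.778 FPKM, a lower share of the gene in both depleted groups (13.5% and 14.0%) than in Scramble (19.2%). For SPRY1, ENST00000515726 was at 2.89 ± 0.721, 2.58 ± 0.123 and 0.693 ± 0.344 FPKM, and ENST00000622283 was at 3.23 ± 1.00, 2.50 ± 0.715 and 1.66 ± 0.891 FPKM. These transcript values were not tested.

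For ETV4 the split over transcripts was less steady than the gene sum. ENST00000393664 took 6.18, 13.0 and 11.1 FPKM of the Scramble samples, whose sums were 19.6 to 19.9 FPKM. A transcript of SPRED1 that the authors' software assembled from the reads held 26.8% to 38.7% of that gene. With annotated transcripts alone DUSP6 no longer passed with Si-FIBP#1 (adjusted p = 0.0753).

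Other genes of the pathway were read from 3 lists, which were also drawn up with earlier results known. The first held 15 relatives of the members, of which 9 were tested. With Si-FIBP#1 2 were higher, 1 was lower and 6 did not pass, and with Si-FIBP#2 6 were higher, 1 was lower and 2 did not pass. The same percentages of all tested genes as above apply (27.8% higher and 19.9% lower, then 31.1% and 17.7%). Higher with both siRNAs were DUSP10, a phosphatase of p38 and JNK, and DUSP1, an immediate-early phosphatase with a broad range of MAPK substrates. DUSP10 was at 4.62, 5.70 and 6.27 FPKM in Scramble, 9.71, 11.4 and 10.1 FPKM with Si-FIBP#1, and 9.17, 11.7 and 9.49 FPKM with Si-FIBP#2, with log2 rises of 0.81 and 0.77 (adjusted p = 0.000477 and 0.000645, limma). DUSP1 was at 14.7 ± 0.135, 23.0 ± 1.55 and 25.7 ± 2.32 FPKM and rose by 0.61 and 0.76 (adjusted p = 0.000168 and 4.48e-05). The groups did not overlap between Scramble and depleted samples for either gene. ERF, an ETS repressor that ERK inactivates, fell by 0.40 and 0.42 (adjusted p = 0.0480 and 0.0392), from 86.4 ± 9.63 FPKM to 65.2 ± 8.22 and 64.9 ± 13.1 FPKM. With Si-FIBP#2 it was at 76.0, 50.4 and 68.2 FPKM, lowest in replicate 2, the sample that stood apart. Both adjusted p-values lie close to the threshold, and ERF was not examined without single samples.

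The second list held 31 genes of the cascade from receptor to ERK, of which 29 were tested. With Si-FIBP#1 7 were higher and 7 lower, where the shares of all genes were 27.8% and 19.9%. With Si-FIBP#2 12 were higher and 5 lower, where 31.1% of all were higher and 17.7% lower. The medians were -0.07 and 0.12, beside 0.07 and 0.11 over all tested genes. With each siRNA 6 of the 29 rose and 5 fell, where 21.8% of all tested genes rose and 13.7% fell with each. The kinase gene BRAF rose by 0.39 and 0.71 (adjusted p = 0.00673 and 0.000222, limma), from 6.42 ± 0.273 FPKM to 8.73 ± 0.567 and 11.2 ± 1.29 FPKM. The adaptor GRB2 rose by 0.41 and 0.35 (adjusted p = 0.00141 and 0.00346), and the ERK-activated kinase RPS6KA3 by 0.30 and 0.39 (adjusted p = 0.00210 and 0.000414). PTPN11, the phosphatase that relays receptor signals to RAS, fell by 0.40 and 0.53 (adjusted p = 0.00670 and 0.00150). RASA1, which switches RAS off, fell by 0.42 and 0.28 (adjusted p = 0.000825 and 0.00826).

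The third list held 33 genes of the serum response and ERK output, of which 31 were tested. Besides induced genes it held SRF and the ETS factor genes ELK1, ELK3 and ELK4. With Si-FIBP#1 3 were higher, 17 were lower and 11 did not pass, where 19.9% of all genes were lower. With Si-FIBP#2 8 were higher, 13 were lower and 10 did not pass, where 31.1% of all genes were higher and 17.7% lower. The medians were -0.27 and -0.13, beside 0.07 and 0.11 over all tested genes. With each siRNA 10 of the 31 were lower and 3 were higher, where 13.7% of all tested genes were lower and 21.8% higher with each. KLF2, a zinc finger factor, fell by 1.44 and 1.12 (adjusted p = 0.000367 and 0.00164, limma), from 11.02 ± 3.06 FPKM to 3.33 ± 0.444 and 4.49 ± 1.09 FPKM. SRF fell by 0.75 and 1.11 (adjusted p = 0.000118 and 1.25e-05), and its groups did not overlap. FOS, an immediate-early gene like EGR1, was at 5.54, 4.32 and 5.23 FPKM in Scramble, 1.38, 1.43 and 1.76 FPKM with Si-FIBP#1, and 2.56, 3.42 and 3.28 FPKM with Si-FIBP#2. It fell by 1.25 and 0.56 (adjusted p = 4.52e-05 and 0.00509).

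The list also had members that rose with both siRNAs. VGF, a secreted neuropeptide precursor, rose by 0.79 and 2.07 (adjusted p = 6.67e-06 and 2.49e-07, limma), from 40.1 ± 0.204 FPKM to 70.3 ± 5.58 and 171.4 ± 4.55 FPKM. KLF4 rose by 0.75 and 0.46 (adjusted p = 0.000440 and 0.00713), and ELK3, an ETS partner of SRF, by 0.26 and 0.17 (adjusted p = 0.00553 and 0.0400).

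**Figure D2:**
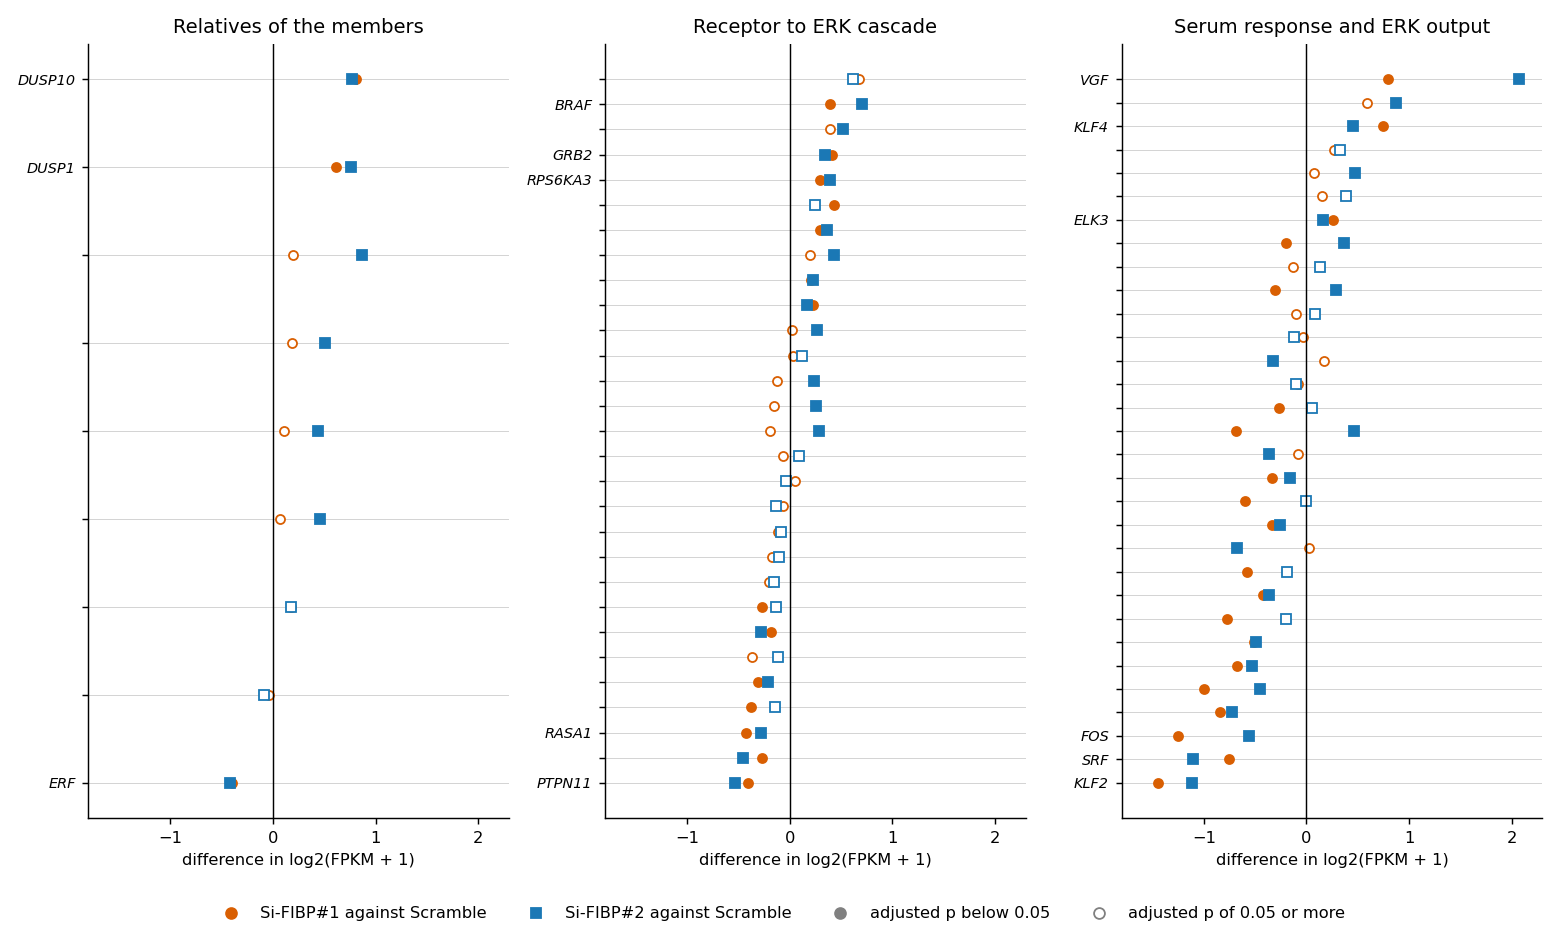
Differences in log2(FPKM + 1) against Scramble for the tested genes of the 3 other lists, with circles for Si-FIBP#1 and squares for Si-FIBP#2, filled where the adjusted p is below 0.05. Genes are ordered by their change with both siRNAs, and those described in the text are named. In the serum response and ERK output panel most filled points lie left of 0 (17 of 20 with Si-FIBP#1 and 13 of 21 with Si-FIBP#2), and the cascade panel has filled points on both sides. Of all tested genes that passed, 2976 of 7146 and 2656 of 7309 were lower.

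Among 14907 tested genes outside the lists, CENPE, a kinetochore motor, ENOPH1, an enzyme of methionine salvage, and OSMR, the oncostatin M receptor, had the levels most like those of EGR1 over the 9 samples (Pearson r = 0.995, 0.982 and 0.981 on the log2 scale). The points share 3 groups and 1 sample that stands apart, so r is a description. CENPE was at 11.3, 11.1 and 11.5 FPKM in Scramble, 5.09, 5.44 and 5.71 FPKM with Si-FIBP#1, and 6.65, 10.7 and 7.0 FPKM with Si-FIBP#2. As for EGR1, the value of Si-FIBP#2 replicate 2 was nearer to Scramble than to the other samples of its group.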

How the data were processed

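RNA-seq of H1299 cells (3 Scramble, 3 Si-FIBP#1 and 3 Si-FIBP#2 samples, grouped by their titles) was used. The submitters' processing notes name HISAT2 and StringTie, whose versions, like the genome build and annotation, are not given in the sources used here. From their alignments the authors computed and deposited FPKM for 244443 transcripts per sample, rounded to 2 decimals. No source names the unit, which was read from the values, as low ones step with transcript length. FPKM were summed per gene identifier. A gene was kept at 1 FPKM or more in 3 of 9 samples. The fit used limma 3.58.1 under R 4.3.3 (empirical Bayes with a mean-variance trend, all samples in 1 fit) on log2(FPKM + 1), with Benjamini-Hochberg adjustment over 14985 genes. The step was tested on simulated data. Fragment numbers were estimated from the FPKM steps of 8028 single-transcript genes, 800 to 2000 nt long. They carry no counting interval.

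Positions are from GENCODE release 29 and promoters from RefSeq. The members and the other lists were chosen with earlier results of these data known. Named genes were the members, FIBP, in each other list up to 3 genes with the largest rise and fall among those that passed with each siRNA in the same direction, and the 3 genes most correlated with the member that changed most. Of the genes and markers so chosen, 2 are not reported here. SRF is shown beside the promoter as one of these. Alternatives were a pseudocount of 0.1, other filters, TPM or median ratio scaling, annotated transcripts only, only the compared groups, a replicate block and leaving out each sample. Python 3.11.15 with matplotlib 3.10.9, pandas 2.3.3 and numpy 2.4.6 served for tables and plots.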

Additional observations from a re-analysis of the deposited data

Results flagged for a closer look

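Of the 9 tested members, 6 responded to the siRNAs to a different extent, by the limma test of Si-FIBP#2 against Si-FIBP#1 itself, where 9.58% of all tested genes were higher and 5.80% lower. Under alternatives this count was 4 to 7. The log2 differences were 0.787 for DUSP5, 0.869 for EGR1, 0.708 for DUSP6 and 0.281 for SPRY4, which were higher with Si-FIBP#2, and -0.965 for SPRY1 and -0.516 for SPRY2, which were lower. FIBP was lowered to 7.96% and 8.66% of Scramble, with no detectable difference between the siRNAs. DUSP5 rose and EGR1 fell with both siRNAs, so for these the difference is one of size. Against Scramble, SPRY2 passed with Si-FIBP#1 and SPRY1 with Si-FIBP#2. SPRY2 with Si-FIBP#2 passed under median ratio scaling (adjusted p = 0.0490), and SPRY1 with Si-FIBP#1 with only the compared groups in the fit (adjusted p = 0.0499). The DUSP6 and EGR1 differences were lost without some single samples, with no filter on low values and with only the compared groups in the fit, as given with their values, whereas those of DUSP5, SPRY1, SPRY2 and SPRY4 passed under all 17 alternatives. Groups of 3 samples were not tested for single outlying values.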

How the results depend on the processing

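Over 603 recalculations of the 36 member changes, 564 kept their direction and their side of the threshold, 25 no longer passed the test, 9 newly passed and 5 changed sign. The sign changes touched SPRED1 with Si-FIBP#2 (0.01 as reported; -0.079 with median ratio scaling, and -0.028 to 0.069 on leaving out 1 sample, with -0.013 and -0.028 without Scramble replicates 1 and 3 and -0.014 without Si-FIBP#2 replicate 1) and SPRY4 with both siRNAs (-0.03 as reported; -0.061 to 0.021 on leaving out 1 sample, with 0.021 without Scramble replicate 1). None of these values passed the test. Median ratio scaling brought SPRY2 with Si-FIBP#2 (-0.15, adjusted p = 0.0490) and SPRED1 with Si-FIBP#1 (-0.25, adjusted p = 0.0386) past the threshold, and moved the median change of all genes from 0.07 to 0.02 and from 0.11 to 0.03. The count of members that passed was 7, 5, 6 and 6 for Si-FIBP#1, Si-FIBP#2, the siRNAs against each other and both together, and 5 to 7, 5 to 6, 4 to 7 and 6 on leaving out 1 sample. Between the siRNAs, where 9.58% of all tested genes were higher and 5.80% lower, 5 of 29 cascade genes passed, all higher with Si-FIBP#2, but 3 with no filter, with annotated transcripts or with only the compared groups, and 3 to 7 on leaving out 1 sample (3 without Scramble replicates 1, 2 or 3, Si-FIBP#1 replicates 1 or 2, or Si-FIBP#2 replicate 3). Of the 31 serum response and ERK output genes 14 passed between the siRNAs (10 higher and 4 lower), 9 with no filter, and 8 to 15 on leaving out 1 sample (8 without Si-FIBP#1 replicates 1 or 2 or Si-FIBP#2 replicate 3). The causes were not tested. With the replicate number as a block, 7, 5, 6 and 6 members passed and no member's call changed. Deviations from the group means correlated at -0.057 to 0.103 for 9 pairs of samples with the same number. For 18 other pairs they correlated at -0.142 to 0.049. These overlapping ranges cannot settle whether the numbers pair the samples. The lowest estimated fragment numbers of the tested members were 100 for SPRY1 and 112 for EGR1.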
